A study of Caenorhabditis remanei with 28 samples.

Results

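Gene expression in L1 larvae of a heat-selected population of the nematode Caenorhabditis remanei was compared with that of its ancestor. The comparison rested on 14 of the 28 libraries of the series. Heat replicates 3 to 8 and ancestor replicates 3 to 8 (n = 6 each) made up the main test, and heat replicates 1 and 2, for which there was no ancestor library of the same number, were used as a check. The ancestor was the strain PX443 and the heat-selected population was derived from it. Every library came from a pool of first-stage larvae, and poly-A RNA was sequenced. Worms of all populations were kept at 20 °C on bacteria, embryos were isolated with bleach and kept unfed in buffer for 20 hours, and about 100000 larvae per replicate were frozen after passing a filter of 20 µm. In buffer they were kept at 20 °C or at 30 °C. The titles of the ancestor libraries carry the number 20 and those of the heat libraries carry no temperature, so a difference between the populations and a difference in the temperature of the embryos cannot be told apart from the labels.

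Nematode larvae that hatch without food arrest in the first larval stage and wait there, with growth halted and stress defences raised, until food returns. Heat unfolds proteins, and animal cells answer by switching on genes for chaperones through heat shock factor, while insulin-like signalling also sets heat resistance in nematodes. Caenorhabditis remanei has separate males and females and is genetically diverse within populations, which makes it a species of choice for selection experiments. A population that withstands heat better may express such genes differently before any heat arrives, and this is the kind of difference that a comparison of selected and ancestral larvae addresses. The labels describe 1 heat-selected population, so an effect of selection and one of drift during its separate history cannot be told apart. They do not say whether the replicates were separate cultures. The p-values therefore set differences against the spread among libraries, which may be smaller than that among separate cultures. In pools of whole larvae, fewer cells of a type and less RNA per cell cannot be told apart either.

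The counts were given for 25337 gene identifiers (FL81 followed by a number) that the files do not pair with names, and 0 of them matched a RefSeq gene table of the species. Genes are therefore reported by identifier, without a function, a position or a sequence, and the labelled stage could not be checked against marker genes. Gene counts per library ranged from 4534564 to 15755610 in the ancestor, from 2277854 to 4306080 in heat 3 to 6, and were 8078381 and 9357212 in heat 7 and 8 and 1555582 and 1406684 in heat 1 and 2. Levels are given as CPM, counts scaled to a common library size,, in which 3 counts correspond to between 0.246 CPM in ancestor 8 and 1.91 CPM in heat 2. Of the identifiers, 10966 had enough counts to be tested in replicates 3 to 8. A gene is called higher or lower where the adjusted p of edgeR's quasi-likelihood test (Benjamini-Hochberg over all genes tested) was under 0.05.

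The libraries fell apart by more than population. On principal component 2, which held 15.3% of the variance of log2 CPM over the 14 libraries, heat 3 to 6 lay between 23.0 and 30.3, ancestor 3 to 6 between -0.157 and 4.33, and replicates 7 and 8 of both populations between -38.2 and -21.9. Heat 1 and 2 lay at -3.92 and 3.79 on this component. They stood apart on others: heat 1 had the highest score on component 1 (85.6, with 43.4% of the variance), and heat 2 lay at -52.2 on component 3 (9.07%), where the other 13 libraries lay between -7.12 and 15.2. Within the ancestor, 126 genes (1.15% of those tested) differed between replicates 7 and 8 and replicates 3 to 6, and within the heat-selected population 294 genes (2.68%) did, by edgeR with Benjamini-Hochberg adjustment. Each result is therefore given for replicates 3 to 6 and for replicates 7 and 8 as well. The labels do not say what sets these replicate numbers apart.

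**Figure D1:**
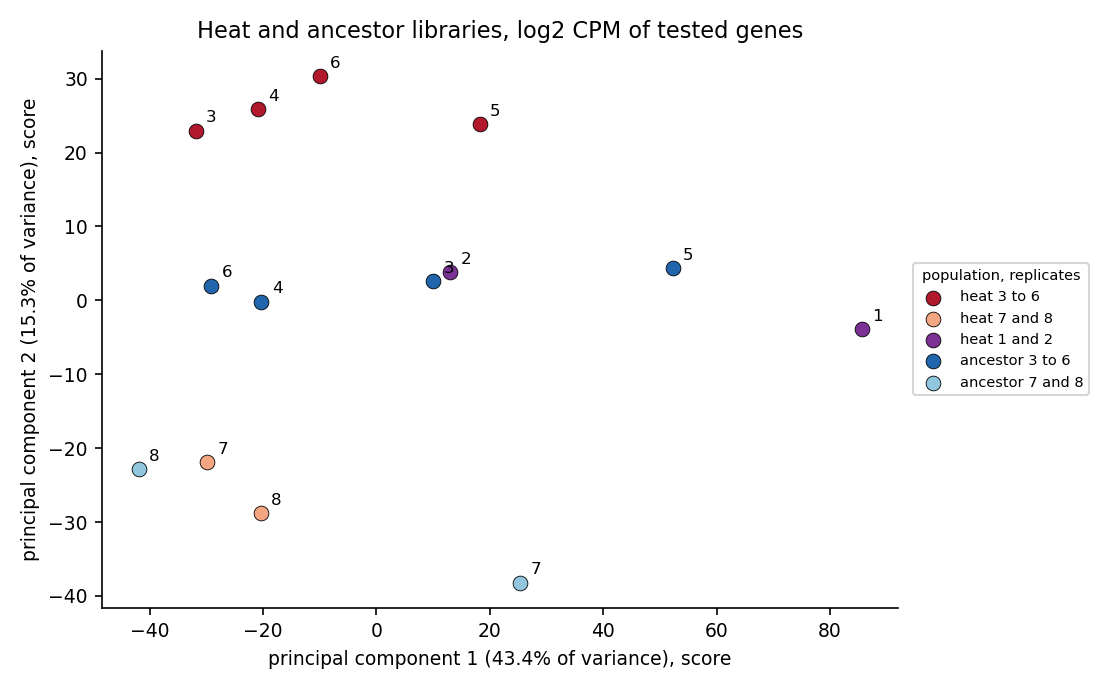
Scores of the 14 libraries on principal components 1 and 2 of log2 CPM, with the share of variance on each axis; each point is a library with its replicate number, coloured by population and replicates. Heat 3 to 6 lie at the top, above 22 on component 2, and replicates 7 and 8 of both populations lie together at the bottom, below -21.

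The share of reads that fell outside annotated genes moved with population in every set of replicates. In the ancestor it was 19.8%, 15.3%, 22.5% and 17.3% in replicates 3 to 6 and 11.7% and 10.6% in replicates 7 and 8. In the heat-selected larvae it was 31.4%, 39.1%, 25.6% and 37.3% in replicates 3 to 6 and 24.2% and 21% in replicates 7 and 8. The heat libraries were the higher ones within each set of replicates, without overlap, although heat 8 lay below ancestor 5. The mean was 29.8% ± 7.36 (SD, n = 6) in heat 3 to 8 and 16.22% ± 4.61 (SD, n = 6) in ancestor 3 to 8. By an exact permutation test, two-sided, this difference exceeded the spread between libraries (p = 0.00433; 0.0433 after adjustment over 10 tests of library shares and totals). Within replicates 3 to 6 the means were 33.4% ± 6.11 and 18.7% ± 3.11 (SD, n = 4 each; exact permutation p = 0.0286, the smallest that 4 against 4 allows, adjusted p = 0.0571). Within replicates 7 and 8 they were 22.6% ± 2.26 and 11.2% ± 0.772 (SD, n = 2 each), where the exact permutation test cannot go below 0.333. The share of unaligned reads was 24.0% in heat and 23.8% in the ancestor over replicates 3 to 8 (exact permutation p = 0.955). Reads aligned to more than 1 place made up 3.08% in heat and 2.65% in the ancestor (exact permutation p = 0.0108, adjusted p = 0.0541), and reads ambiguous between genes 2.29% and 2.85% (exact permutation p = 0.0649, adjusted p = 0.108). Within replicates 3 to 6 the gene counts were lower in heat and the share aligned to more than 1 place was higher, both without overlap (exact permutation p = 0.0286 and adjusted p = 0.0571 for each). Heat 1 and 2 had 22.9% and 26.3% of their reads outside genes.

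**Figure D2:**
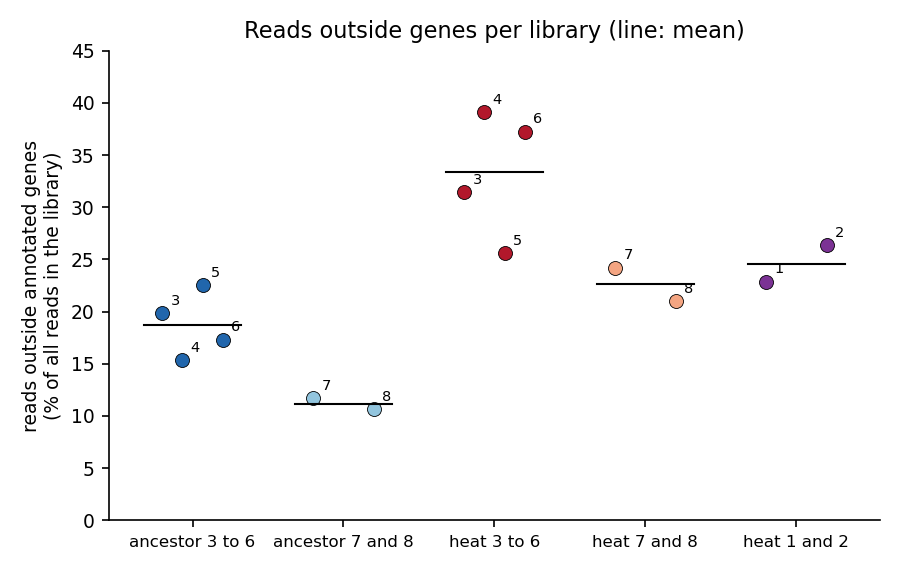
Reads outside annotated genes, as a percentage of all reads in a library, in the 14 libraries; each point is a library with its replicate number and each line a mean. The heat libraries of replicates 3 to 6 and of replicates 7 and 8 lie above the ancestor libraries of the same replicates.

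Over replicates 3 to 8, 26 genes were higher and 5 lower in the heat-selected larvae (0.237% and 0.0456% of the 10966 tested, or 0.283% together). At an unadjusted p under 0.05, edgeR picked 784 genes (7.15%). The heat and ancestor libraries did not overlap in 13 of the 26 higher and in 4 of the 5 lower genes, against 0.31% and 0.137% of all genes tested. The same libraries chose these genes, so this comparison is no separate support. Of the 26 higher genes, 25 were at least 2-fold higher over replicates 3 to 8. The median log2 fold change of the 26 higher genes was 1.94 in replicates 3 to 6 and 0.73 in replicates 7 and 8. That of the 5 lower genes was -1.77 and -1.10. The medians of all genes tested were -0.02 and -0.03. In these separate comparisons, 25 of the 26 higher and all 5 lower genes were called in replicates 3 to 6. In replicates 7 and 8, with fewer libraries, 0 of 26 and 1 of 5 were called. There, 16 of the higher and 3 of the lower genes had an unadjusted p under 0.05 by edgeR. Replicates 3 to 6 also gave most of the libraries that chose these genes, which favours a larger change there. The difference between the sets, tested directly by edgeR as an interaction, was called in 5 of the 26 higher and 0 of the 5 lower genes. All 31 genes had the same sign in both sets of replicates, but both sets took part in choosing them. When the share of reads outside genes was added to the model, 3 genes were called over replicates 3 to 8. In that model 1245 genes had an unadjusted p under 0.05 by edgeR. The share did not overlap between the populations within either set of replicates, so its part and that of population can hardly be told apart.

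FL81_02867, which was lower in the heat-selected larvae, was the gene called in both sets of replicates. In the ancestor it stood at 12, 14.8, 9.66 and 8.94 CPM in replicates 3 to 6 and at 12.7 and 22 CPM in replicates 7 and 8. In the heat-selected larvae it stood at 1.91, 0.462, 2.56 and 0.755 CPM in replicates 3 to 6 and at 1.21 and 1.88 CPM in replicates 7 and 8. Every heat library was below every ancestor library, and the heat values rest on 1 to 15 counts per library. Its log2 fold change was -3.09 (SE 0.32, edgeR adjusted p = 0.000266) over replicates 3 to 8, -2.83 (SE 0.40, adjusted p = 0.000995) in replicates 3 to 6 and -3.47 (SE 0.50, adjusted p = 0.0249) in replicates 7 and 8. Leaving out ancestor 3, 4, 6 or 8 or heat 7 or 8 ended the call in replicates 7 and 8 (adjusted p up to 0.745), and in the model with the outside-gene share it was not called (log2 fold change -2.23 over replicates 3 to 8 with adjusted p = 0.0803, -1.37 in replicates 3 to 6 and -2.13 in replicates 7 and 8). Of this gene, heat 1 and 2 held 1 and 0 counts, or 0.442 and 0 CPM. The control-selected population stood at 23.2 ± 7.29 CPM (SD, n = 8) and the oxidative-selected population at 11.3 ± 4.09 CPM (SD, n = 6), both from the same ancestor.

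FL81_23115 had the smallest p of the genes that were higher over replicates 3 to 8, although of the separate sets it was called in replicates 3 to 6 alone. It stood at 4.64, 5.93, 5.80 and 9.83 CPM in ancestor 3 to 6 and at 5.34 and 8.85 CPM in ancestor 7 and 8. In the heat-selected larvae it stood at 33.8, 24.5, 23.5 and 23.4 CPM in replicates 3 to 6 and at 32.8 and 21.4 CPM in replicates 7 and 8. The groups did not overlap, and the lowest heat library was more than 2-fold above the highest ancestor library. Over replicates 3 to 8 the log2 fold change was 1.96 (SE 0.21, edgeR adjusted p = 0.000266), with 2.00 in replicates 3 to 6 (adjusted p = 0.000733) and 1.90 in replicates 7 and 8 (SE 0.36, adjusted p = 0.264). In the model with the outside-gene share it was still called over replicates 3 to 8 (log2 fold change 2.07, adjusted p = 0.0466). Control-selected larvae stood at 5.91 ± 2.29 CPM (SD, n = 8), near the ancestor. Oxidative-selected larvae stood lower, at 3.29 ± 1.04 CPM (SD, n = 6), against an ancestor mean of 6.73 CPM. In heat 1 and 2 it stood at 8.40 and 14 CPM, of which the first lay among the ancestor libraries.

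FL81_24102 was also higher in the heat-selected larvae, at a lower level than FL81_23115. It stood at 3.87, 4.26, 2.81, 2.86, 3.75 and 6.31 CPM in ancestor 3 to 8 and at 10.2, 10.6, 9.83, 11.7, 9.23 and 9.13 CPM in heat 3 to 8. The heat libraries lay close together and all above the ancestor libraries. Over replicates 3 to 8 the log2 fold change was 1.30 (SE 0.22, edgeR adjusted p = 0.0136), with 1.61 in replicates 3 to 6 (adjusted p = 0.00382) and 0.84 in replicates 7 and 8, where it was not called. In the model with the outside-gene share the log2 fold change was 1.40 and no longer passed the test (adjusted p = 0.218). Control-selected larvae stood at 9.63 ± 3.32 CPM (SD, n = 8). Their replicates 1 to 6, between 8.46 and 13.5 CPM, had a level like that of the heat-selected larvae. Control-selected replicates 7 and 8 stood at 7.04 and 3.47 CPM, the last within the range of the ancestor. Oxidative-selected larvae stood at 3.36 ± 0.885 CPM (SD, n = 6), near the ancestor. FL81_23115 and FL81_24102 were picked after their values were seen, as examples of genes that moved in both sets of replicates.

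FL81_17361 was lower in the heat-selected larvae, more so in replicates 3 to 6. The ancestor stood at 29.0, 19.3, 23.0 and 17.3 CPM in replicates 3 to 6 and at 9.81 and 10.1 CPM in replicates 7 and 8. The heat libraries stood at 4.46, 7.39, 2.35 and 3.40 CPM in replicates 3 to 6 and at 4.39 and 3.63 CPM in replicates 7 and 8. The heat libraries had similar levels in both sets, and it was the ancestor that was lower in replicates 7 and 8. Its log2 fold change was -2.13 over replicates 3 to 8 (SE 0.32, edgeR adjusted p = 0.00735). It was -2.41 in replicates 3 to 6 (adjusted p = 0.000524) and -1.33 in replicates 7 and 8, where the unadjusted p was 0.00506 and the gene was not called. The difference between these changes, -1.08, did not pass its own test (adjusted p = 1.00). In heat 1 and 2 it stood at 14.6 and 11.4 CPM, within the range of the ancestor. Oxidative-selected larvae stood at 5.22 ± 1.16 CPM (SD, n = 6), all below the ancestor. Control-selected larvae stood at 8.23 ± 5.14 CPM (SD, n = 8). Their replicates 1 to 3, at 14.7, 15.7 and 10.2 CPM, lay within the range of the ancestor. Their replicates 4 to 8, between 1.16 and 8.16 CPM, lay below it.

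**Figure D3:**
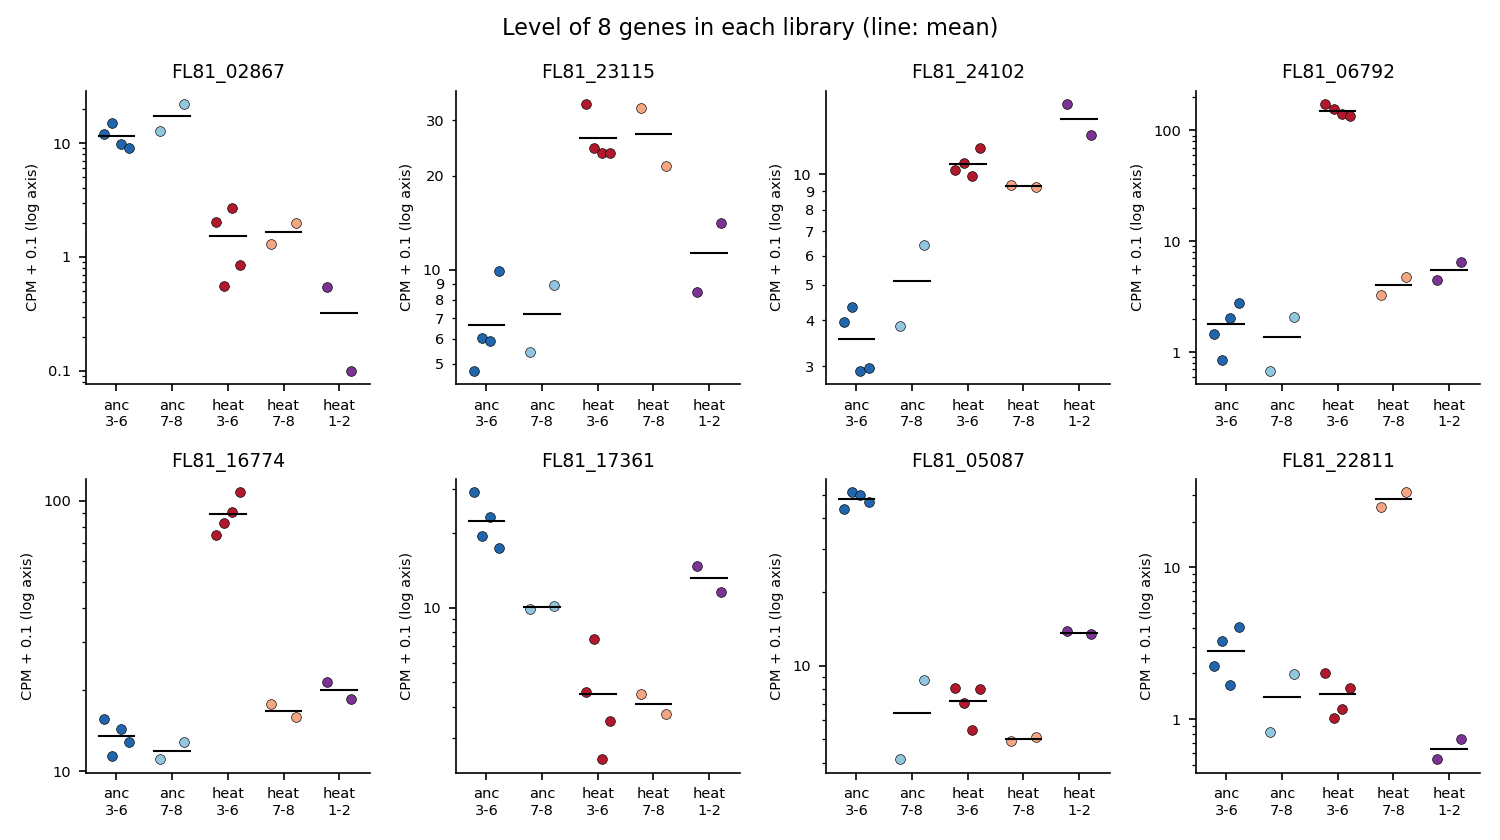
Level of 8 genes, as CPM + 0.1 on a log axis, in the ancestor (anc) and heat libraries by replicates; each point is a library and each line a mean. FL81_02867 and FL81_23115 separate the populations in both sets of replicates, while FL81_06792 and FL81_16774 are raised in heat 3 to 6 and FL81_22811 in heat 7 and 8.

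In replicates 3 to 6 alone (n = 4 each), 133 genes were higher and 53 lower in the heat-selected larvae (1.21% and 0.483% of those tested, or 1.7% together), and 970 genes (8.85%) had an unadjusted p under 0.05 by edgeR. Of the 133 higher genes, 103 were at least 2-fold and 37 at least 4-fold higher, and of the 53 lower genes 46 were at least 2-fold and 9 at least 4-fold lower. The 133 higher genes took between 1.84% and 2.31% of the gene counts in heat 3 to 6 and between 0.659% and 0.790% in ancestor 3 to 6, the libraries that chose them. When the outside-gene share was added to the model, 11 genes were called in replicates 3 to 6, and 312 had an unadjusted p under 0.05 by edgeR.

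Replicates 7 and 8 (n = 2 each) share no library with this choice. There, 2 genes were called, FL81_22811 as higher and FL81_02867 as lower (0.00912% of the genes tested in each direction, or 0.0182% together), and 234 genes (2.13%) had an unadjusted p under 0.05 by edgeR. Of the 133 genes higher in replicates 3 to 6, 79 (59.4%) had a log2 fold change above 0 in replicates 7 and 8, against 46.2% of all genes tested. Both heat libraries lay above both ancestor libraries in 40 of the 133 (30.1%), against 10.7% of all genes tested, and both lay below in 16 (12.03%), against 10.4%. Of the 53 lower genes, 25 (47.2%) had a log2 fold change below 0, against 53.8% of all genes tested. Both heat libraries lay below both ancestor libraries in 10 of the 53 (18.9%) and above in 9 (17.0%), against the same 10.4% and 10.7%. The median log2 fold change of the 133 higher genes was 1.47 in replicates 3 to 6 and 0.12 in replicates 7 and 8, where 12 of them were at least 2-fold higher. That of the 53 lower genes was -1.60 and 0.02. Among the 37 genes at least 4-fold higher in replicates 3 to 6, the median in replicates 7 and 8 was 0.06, and 21 had the same sign.

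The same genes in single libraries gave a like picture. On a log2(CPM + 1) scale, the median difference of the 133 higher genes from the mean of ancestor 3 to 6 was between 1.23 and 1.40 in heat 3, 4, 5 and 6. In heat 7 and 8 their median difference from the mean of ancestor 7 and 8 was 0.14 and 0.15. The 53 lower genes stood between -1.40 and -1.23 in heat 3 to 6 and at 0.03 and 0.12 in heat 7 and 8. Of gene counts, the 133 genes took 0.580% to 0.670% in heat 7 and 8 and 0.546% to 0.585% in ancestor 7 and 8, ranges that lie close to each other.

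**Figure D4:**
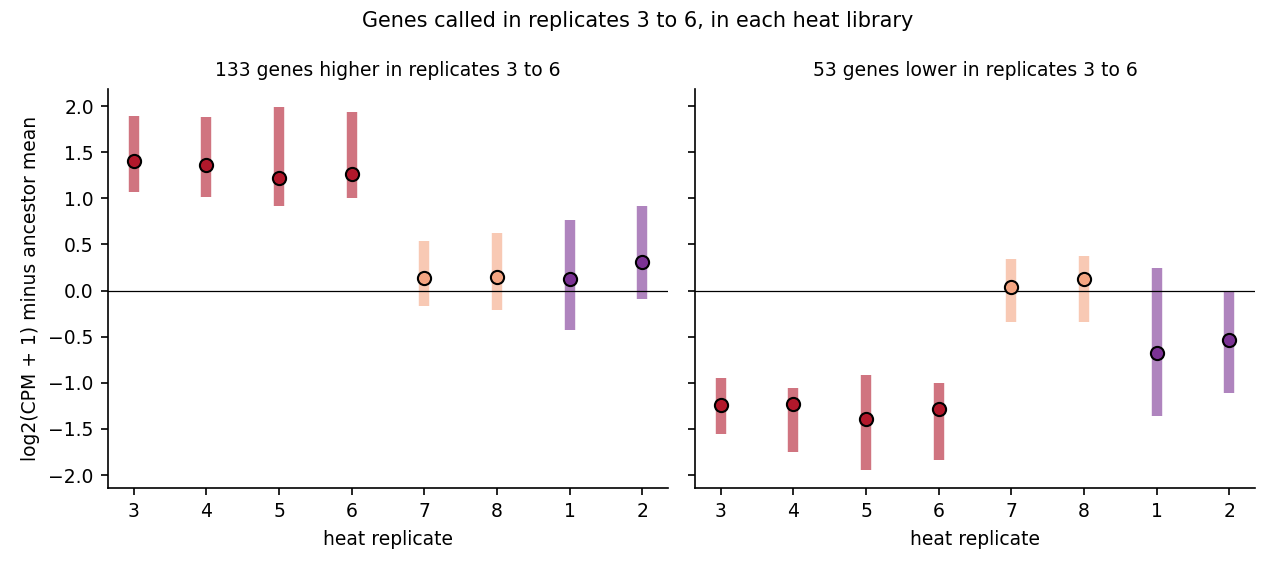
Genes called in replicates 3 to 6 (133 higher, 53 lower) in each heat library, as log2(CPM + 1) minus the mean of ancestor 3 to 6 (for heat 3 to 6), of ancestor 7 and 8 (for heat 7 and 8) or of ancestor 3 to 8 (for heat 1 and 2); points are medians over genes and bars run from the 25th to the 75th percentile. The medians are near 0 in heat 7 and 8.

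Genes whose libraries did not overlap in replicates 3 to 6 can be followed without a call threshold. There were 487 such genes with heat higher and 311 with heat lower (4.44% and 2.84% of those tested). Of the 487, 110 (22.6%) also had both heat libraries above both ancestor libraries in replicates 7 and 8, against 10.7% of all genes tested, and 38 (7.8%) had them below, against 10.4%. Of the 311, 50 (16.08%) had both heat libraries below in replicates 7 and 8, against 10.4%, and 38 (12.2%) had them above, against 10.7%. The 110 genes were 9.39% of the 1172 without overlap and with heat higher in replicates 7 and 8, and the 50 were 4.37% of the 1144 with heat lower there. The share with the same direction was above that of all genes in both directions. The edgeR fits gave 44 higher and 15 lower genes with an unadjusted p under 0.05 in both sets of replicates and the same sign, and 16 with opposite signs. With Benjamini-Hochberg adjustment, 1 gene was lower in both sets, and 0 genes were higher in both by edgeR. FL81_23115 was higher in both by DESeq2, by edgeR without the filter on low counts and by edgeR in a fit of 26 libraries. Over all 10966 genes the log2 fold changes of the sets had a correlation of 0.22, and 58.8% had the same sign. These are descriptions across genes, which are not independent replicates, and the sets share the model's normalization and estimate of spread.

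**Figure D5:**
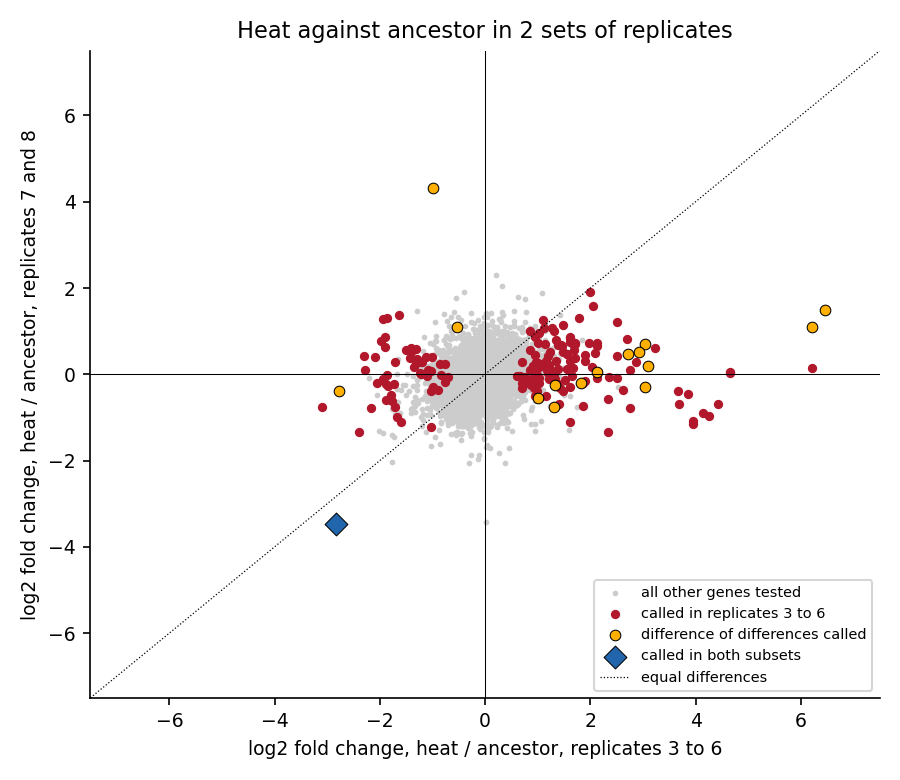
Log2 fold change of heat against ancestor in replicates 3 to 6 (horizontal axis) and in replicates 7 and 8 (vertical axis); each point is a tested gene, coloured by call, and the dotted line marks equal differences. Most genes called in replicates 3 to 6 lie near 0 on the vertical axis, and FL81_02867, called in both, lies near the dotted line.

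The difference between the changes of the sets was tested directly, as an interaction of population and set of replicates. It passed the edgeR test with Benjamini-Hochberg adjustment in 15 genes (0.137%), with 12 genes (0.109%) raised in heat by more in replicates 3 to 6 and 3 genes (0.0274%) with a smaller or more negative change there, and 404 genes (3.68%) had an unadjusted p under 0.05. FL81_06792 was 1 of the 12. It stood at 174, 155, 141 and 135 CPM in heat 3 to 6, at 3.18 and 4.63 CPM in heat 7 and 8, and between 0.577 and 2.68 CPM with a median of 1.64 in the 6 ancestor libraries. All heat libraries lay above all ancestor libraries, by far more in replicates 3 to 6. Its log2 fold change was 6.46 in replicates 3 to 6 (SE 0.32, edgeR adjusted p = 1.77e-08) and 1.48 in replicates 7 and 8 (SE 0.45, unadjusted p = 0.00531), and the difference of 4.98 had a SE of 0.59 (adjusted p = 0.00117). Its call over replicates 3 to 8 had a log2 fold change of 6.00 (SE 0.89, adjusted p = 0.00735), an average over sets that differed. In the model with the outside-gene share the interaction was still 4.98 (adjusted p = 0.00406), while the change over replicates 3 to 8 was 3.74 and was not called (adjusted p = 0.301). Control-selected larvae stood at 7.72 ± 3.04 CPM (SD, n = 8) and oxidative-selected larvae at 3.36 ± 1.10 CPM (SD, n = 6).

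FL81_06793, next in number to FL81_06792, had the same pattern. It stood at 224, 226, 179 and 175 CPM in heat 3 to 6 and at 2.88 and 5.50 CPM in heat 7 and 8, and between 0.721 and 3.04 CPM with a median of 2.75 in the ancestor. Heat 7 therefore lay within the range of the ancestor, while heat 3 to 6 stood far above it. The interaction was 5.10 on the log2 scale (SE 0.54, edgeR adjusted p = 0.000683). The files give no positions. Reads aligned to more than 1 place were counted for no gene, but a read of 1 near-identical copy could still align to the other alone. FL81_16774 was also raised in heat 3 to 6, at 74.6, 82.7, 91.0 and 107 CPM, against 17.6 and 15.8 CPM in heat 7 and 8 and 11 to 15.5 CPM with a median of 12.7 in the ancestor. All heat libraries lay above all ancestor libraries, those of replicates 7 and 8 by little. The interaction was 2.25 on the log2 scale (SE 0.30, edgeR adjusted p = 0.00375), and the log2 fold change over replicates 3 to 8 was 2.31 (SE 0.40, adjusted p = 0.0172). That last call ended when ancestor 4, 6 or 7 or heat 4 or 6 was left out (adjusted p 0.0519 to 0.0602), and in the model with the outside-gene share, where the log2 fold change was 0.98 (adjusted p = 0.501). Control-selected larvae stood at 13.97 ± 4.79 CPM (SD, n = 8) and oxidative-selected larvae at 13.1 ± 1.27 CPM (SD, n = 6), near the ancestor.

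FL81_22811 was raised in heat 7 and 8. It stood at 24.8 and 31.1 CPM there and at 1.91, 0.924, 1.07 and 1.51 CPM in heat 3 to 6, against 0.721 to 3.93 CPM with a median of 2.01 in the ancestor. Heat 3 to 6 lay within the range of the ancestor, and heat 7 and 8 far above it. These levels rest on 2 to 6 counts per library in heat 3 to 6, 5 to 23 in the ancestor, and 164 and 249 in heat 7 and 8. FL81_22811 was tested in 8 of the 12 fits that left out a library. Without ancestor 4, ancestor 6, heat 7 or heat 8 it had too few counts to be tested. Its test thus depends on heat 7 and 8, where it is high, and on ancestor 4 and 6, at 3.15 and 3.93 CPM. The log2 fold change was 4.32 in replicates 7 and 8 (SE 0.47, edgeR adjusted p = 0.00190) and -0.99 in replicates 3 to 6 (adjusted p = 0.489), and the interaction was -5.30 (SE 0.62, adjusted p = 0.00117). Control-selected replicates 7 and 8 were also high, at 41.6 and 44.6 CPM, while control-selected replicates 1 to 6 stood between 0.817 and 5.36 CPM. FL81_05087 differed between the sets through its ancestor libraries, which stood at 43.5, 50.9, 49.7 and 46.6 CPM in replicates 3 to 6 and at 4.04 and 8.61 CPM in replicates 7 and 8. Heat 3 to 6 stood at 7.97, 6.93, 5.34 and 7.93 CPM and heat 7 and 8 at 4.84 and 5.00 CPM. The heat libraries were low in both sets, and the ancestor libraries of replicates 7 and 8 lay around them. Control-selected libraries stood between 2.66 and 15.7 CPM and oxidative-selected libraries between 10.3 and 12.1 CPM, so that ancestor 3 to 6 were above every other library of the 28. The log2 fold change of FL81_05087 was -2.78 in replicates 3 to 6 (SE 0.24, edgeR adjusted p = 9.41e-06) and -0.40 in replicates 7 and 8, and the interaction of -2.38 (SE 0.40, adjusted p = 0.0261) was called in 3 of the 12 fits that left out a library.

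The libraries of each population that made the sets differ can be read from the changes within populations, with the limit that heat 3 to 6 and ancestor 3 to 6 also chose the genes. From replicates 3 to 6 to replicates 7 and 8, the 133 higher genes had a median log2 change of -1.38 in the heat-selected larvae and of -0.05 in the ancestor. Of these, 77 (57.9%) were called within the heat-selected population, against 2.68% of all genes tested, and 12 (9.02%) within the ancestor, against 1.15%. The 53 lower genes had medians of 0.56 in the heat-selected larvae and -0.60 in the ancestor, with 15 (28.3%) and 11 (20.8%) genes called. The 12 genes with a larger change in replicates 3 to 6 were all called in the heat-selected population, and 1 of them in the ancestor.

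Heat 3 stood apart for a small group of genes. In this library 9 genes were at least 4 times as high as in the other 11 libraries of replicates 3 to 8 on the CPM + 1 scale, and none of those 11 had such a gene. They stood between 118 and 1838 CPM in heat 3, between 11.7 and 299 CPM in heat 4, 5 and 6, between 1.05 and 72.2 CPM in the ancestor and between 1.51 and 52.5 CPM in heat 7 and 8. In all 9, heat 4, 5 and 6 also lay above ancestor 3 to 6, and all 9 were called in replicates 3 to 6, with log2 fold changes from 3.69 to 6.22. In replicates 7 and 8 their log2 fold changes ran from -1.15 to 0.15, and 0 of the 9 passed the edgeR test over replicates 3 to 8 after adjustment, while 9 had an unadjusted p under 0.05. The highest was FL81_19472, picked for that reason, at 1838, 217, 44.4 and 45.7 CPM in heat 3 to 6 and 22.3 and 52.5 CPM in heat 7 and 8. Its ancestor libraries stood at 7.35, 10.4, 4.39 and 6.43 CPM in replicates 3 to 6 and at 18.9 and 48.0 CPM in replicates 7 and 8. Heat 3 to 6 lay above ancestor 3 to 6 without overlap, and replicates 7 and 8 of the populations overlapped. The log2 fold change in replicates 3 to 6 was 6.22 (SE 1.09, edgeR adjusted p = 0.00679) and 3.83 without heat 3 (adjusted p = 0.00251). The control-selected population was at 21.8 ± 23.7 CPM (SD, n = 8) and oxidative-selected larvae at 34.7 ± 6.76 CPM (SD, n = 6).

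Genes with neighbouring numbers were sometimes called together. Among the 186 genes called in replicates 3 to 6, 24 (12.9%) had a called gene next in number, in 12 pairs of 6375 pairs of consecutive numbers tested, and all 12 pairs had the same sign. Over replicates 3 to 8 there were 2 such pairs, of which FL81_06792 with FL81_06793 was the pair with the larger change. Whether consecutive numbers stand for neighbouring genes is not given in the files.

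Heat 1 and 2 were set against the same ancestor libraries, so that the comparison shares its controls with that of replicates 3 to 8 and is given beside it. By edgeR with Benjamini-Hochberg adjustment, 3 genes were higher and 4 lower in heat 1 and 2 (0.0273% and 0.0364% of the 10996 tested, or 0.0637% together), and 1934 genes (17.6%) had an unadjusted p under 0.05. FL81_02867 and FL81_24102 were among the 7. FL81_24102 stood at 15.5 and 12.7 CPM in heat 1 and 2, above heat 3 to 8 and above the ancestor (log2 fold change 1.78, SE 0.30, adjusted p = 0.0369). This call was kept in 7 of the 14 fits that left out a library and lost without ancestor 3, 4 or 6 or heat 1, 2, 4 or 6 (adjusted p 0.0524 to 0.724), and that of FL81_02867 was lost without heat 1 or heat 2. The gene with the smallest p was FL81_25124, named for that reason, at 32.3 and 33.1 CPM in heat 1 and 2. Its ancestor libraries stood between 3.68 and 8.08 CPM with a median of 5.10, and heat 3 to 8 between 7.88 and 16.6 CPM with a median of 12.7. Heat 1 and 2 lay above all other heat and ancestor libraries, and heat 8 lay within the range of the ancestor. The log2 fold change of FL81_25124 was 2.57 in heat 1 and 2 (SE 0.30, edgeR adjusted p = 0.000901) and 1.15 in heat 3 to 8 (adjusted p = 0.0605). The control-selected population was at 12.598 ± 4.59 CPM (SD, n = 8). Its replicates 1 to 6, between 10.3 and 17.1 CPM, were like heat 3 to 8. Its replicates 7 and 8, at 5.93 and 6.02 CPM, lay within the range of the ancestor. Oxidative-selected larvae stood at 5.17 ± 1.57 CPM (SD, n = 6). The count of 7 genes was 338 without ancestor 5 and 46 without ancestor 7. Without heat 1 it was 0, with 574 genes at an unadjusted p under 0.05 by edgeR, but heat 2 is then a lone library, assumed to vary like the other groups.

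The genes called in the other heat libraries did not all stand apart in heat 1 and 2. Both libraries lay beyond all 6 ancestor libraries in 11 of the 26 genes higher over replicates 3 to 8, against 6.96% of all genes tested, and in 1 of the 5 lower genes, against 6.06%. Both lay above the ancestor mean in 19 of the 26, against 26.8% of all genes tested. The same ancestor libraries took part in choosing these genes, so these shares are no separate support. FL81_06792 stood at 4.42 and 6.36 CPM, FL81_06793 at 3.98 and 6.36 CPM and FL81_16774 at 21.2 and 18.4 CPM in heat 1 and 2, near the levels of heat 7 and 8 and above all ancestor libraries. FL81_05087 stood at 13.7 and 13.3 CPM, between heat 3 to 8 and ancestor 3 to 6. Of the 133 genes higher in replicates 3 to 6, 39 in heat 1 and 37 in heat 2 were nearer to the mean of heat 3 to 6 than to that of heat 7 and 8, against 60.9% and 58.5% of all genes tested. Among the 53 lower genes the counts were 24 in heat 1 and 23 in heat 2. Heat 3 to 6 chose both lists, which moves their mean away from libraries not used in the choice. The shares of all genes are therefore no like measure. Summed, the 133 higher genes took 1.04% to 1.11% of the gene counts in heat 1 and 2, between the shares in heat 7 and 8 and in heat 3 to 6. On the log2(CPM + 1) scale, their median difference from the mean of ancestor 3 to 8 was 0.13 in heat 1 and 0.31 in heat 2. In heat 7 and 8 it was 0.14 and 0.15 from the mean of ancestor 7 and 8. The median difference of the 53 lower genes from the mean of ancestor 3 to 8 was -0.67 in heat 1 and -0.53 in heat 2.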

How the data were processed

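For each library the authors deposited raw counts, the whole-number reads of 25337 gene identifiers, together with summary lines for reads that were given to no gene. GSNAP was the aligner and HTSeq the counter, per the submitters' processing notes. Not given in the sources used here were the build, the annotation and the strand setting. Genes that overlap on opposite strands, or have near-identical copies, may therefore hold reads of each other. The summary lines were left out of library sizes and tests. Their share of all reads was compared between populations by two-sided exact permutation tests.

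Counts were tested in R 4.3.3 with edgeR 4.0.16 (filterByExpr with a minimum count of 10, TMM scaling, quasi-likelihood test, Benjamini-Hochberg adjustment at 0.05). A first model had the populations of replicates 3 to 8, a further one had population and set of replicates (3 to 6, or 7 and 8) as 4 groups with their interaction, and a further one added heat 1 and 2 to the 12 libraries. Standard errors are the log2 fold change divided by the square root of F. Levels are CPM on a TMM scale of all 28 libraries. Principal components used a prior count of 2. Alternatives used limma 3.58.1 and DESeq2 1.42.0. The scripts were tested on simulated data. No pair of libraries of a population agreed within sampling noise (chi-square per degree of freedom 4.84 to 96.1 over 43 pairs), so each was counted as 1 sample.

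The genes, sets of replicates and tests were chosen with earlier results of these data known. The named genes are, in each direction, the 2 with the largest change over replicates 3 to 8 (adjusted p under 0.05, average log2 CPM of at least 1, no overlap of libraries), those called in both sets by the same criteria, and the 2 largest and 2 smallest interactions past the same p and level. FL81_23115, FL81_24102, FL81_25124 and FL81_19472 were added after their values were seen. Limits of depth cover counting error only, while the SEs and SDs include the spread between libraries.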

Additional observations from a re-analysis of the deposited data

Results flagged for a closer look

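FL81_19472 reached 1838 CPM in heat 3, far from the other heat libraries of replicates 3 to 8, of which the highest stood at 217 CPM. In the ancestor the same gene stood at 48.0 CPM in replicate 8, apart from the other 5 libraries, which did not exceed 18.9 CPM. Ancestor 8 also stood apart in depth, with 15755610 gene counts. These 3 values came from 32 groups of libraries searched for a value that stands apart, and chance flags about 1 in 20 groups. FL81_19472 was in the search because of its level in heat 3, so this rate does not apply to that value.

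The change from ancestor to heat differed between replicates 3 to 6 and replicates 7 and 8 in 15 genes by a test of the difference itself (edgeR, interaction, Benjamini-Hochberg adjustment). On the log2 scale the difference was 5.10 for FL81_06793 and 4.98 for FL81_06792, which were raised in heat 3 to 6. It was -5.30 for FL81_22811, which was raised in heat 7 and 8. It was -2.38 for FL81_05087, whose ancestor libraries were lower in replicates 7 and 8 than in replicates 3 to 6. With the outside-gene share of reads in the model, the difference was 5.11 for FL81_06793, 4.98 for FL81_06792 and -5.16 for FL81_22811 (adjusted p 0.00233, 0.00406 and 0.00406), about as large and still called. It was -2.43 for FL81_05087 and no longer called (adjusted p = 0.0638). The replicates also differed in depth, whose part in the result was not tested.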

How the results depend on the processing

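Over replicates 3 to 8, where 31 genes were called, the count was 70 without a filter on low counts, 94 with DESeq2, 72 with limma-voom, 88 in a fit of 26 libraries, 73 with the set of replicates as a term, 9 with heat 1 and 2 added and 3 with the outside-gene share of reads as a covariate. Fits chosen after seeing the data gave 214 (replicates 3 to 6 alone), 3 (replicates 7 and 8 alone), 173 (heat 3 to 6 against ancestor 3 to 8) and 5 (heat 7 and 8 against ancestor 3 to 8). In replicates 3 to 6 the count of 186 became 340 without the filter, 386 with limma-voom, 317 in the fit of 26 libraries and 11 with the covariate. In replicates 7 and 8 the count of 2 became 8 without the filter, 5 with DESeq2 and 0 with the covariate, where edgeR gave 157 genes with an unadjusted p under 0.05. The interaction count of 15 became 94 without the filter, 56 with DESeq2, 51 in the fit of 26 libraries and 7 with the covariate. The count of 1 gene shared by both sets became 2 without the filter, with DESeq2 and in the fit of 26 libraries (FL81_02867 and FL81_23115), and 0 with the covariate. The share of genes called in replicates 3 to 6 that kept their sign in replicates 7 and 8 was 90.9% with the covariate (10 of 11 genes), where 73.6% of all genes tested had the same sign in both sets. The count of 7 for heat 1 and 2 became 45 without the filter and 314 with DESeq2. The causes of these shifts were not tested.

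Leaving out each library in turn gave 16 to 54 genes over replicates 3 to 8, with 54 without heat 7 or without heat 8 and 16 without ancestor 6. It gave 113 to 239 genes in replicates 3 to 6, 0 to 2 in replicates 7 and 8, 6 to 35 in the interaction, 0 to 1 shared, 52.1% to 62.9% of signs kept and 0 to 338 genes for heat 1 and 2. Where this left a group with 1 library, that library was assumed to vary like the other groups. The difference in reads outside genes ran from 11.7 to 15.3 percentage points (exact permutation p 0.00216 to 0.00866). Of 343 values of the named genes under the alternatives, 291 stayed on their side of the threshold, 52 were no longer past it and 0 changed sign. The interactions of FL81_06792 and FL81_06793 were no longer called without ancestor 8 (adjusted p 0.196 and 0.0921), and limma-voom did not call FL81_06792 over replicates 3 to 8 (adjusted p = 0.185).

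Populations share replicate numbers. The deviations of same-numbered libraries correlated at -0.08, 0.18, 0.75, 0.05, 0.05 and 0.27 in replicates 3 to 8, and the own number was the best match for heat 4 and 5 and for ancestor 5, so the numbers were not taken to pair the libraries. With a replicate block the counts were 79 over replicates 3 to 8, 218 in replicates 3 to 6, 2 in replicates 7 and 8 and 32 in the interaction. Depth limits low genes in heat 1 and 2, where 3 counts reach 1.91 CPM.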
